A study of Mus musculus with 4 samples.

Results

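DnaJ proteins, also called J proteins or HSP40s, are the cochaperones that bring unfolded clients to HSP70 chaperones and switch on their ATPase through a shared J domain. Each compartment of the cell pairs its own HSP70 with its own J proteins: BiP (Hspa5) works in the endoplasmic reticulum, mortalin (Hspa9) in the mitochondrial matrix and Hsc70 (Hspa8) in the cytosol and nucleus. The messages of reticulum J proteins are translated on membrane-bound ribosomes, and those of the cytosolic ones mostly on free ribosomes. The genes were chosen by name, as every probe set whose only symbol in the platform annotation is Dnaja, Dnajb or Dnajc with a number. That gave 102 of 45037 non-control probe sets, for 42 of 18193 genes. Placement by compartment follows textbook knowledge: 5 genes act in the lumen of the reticulum, 5 sit in its membrane, 4 act in mitochondria, 17 in the cytosol or nucleus and 3 on vesicles or endosomes, and 8 were left unassigned. Dnajc19, of the mitochondrial import motor, shares its 3 probe sets with a pseudogene and was therefore not a member.

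RNA was measured on 4 Affymetrix mouse expression arrays, 2 of pseudopodia and 2 of cell bodies of NIH/3T3 cells, an established mouse fibroblast line. All cells were cultured with 10% calf serum, then placed without serum on a membrane with pores whose lower face carried fibronectin, extended protrusions through the pores for 1 h, were fixed in formaldehyde, and were then split by wiping one side of the membrane clean. The labels call the samples of a compartment independent without naming separate cultures, and the spread behind each p-value may thus be a technical one. A difference is one of share in the labelled RNA of each compartment, and a loss from protrusions cannot be told apart from a gain in cell bodies.

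The values are probe set intensities with a floor of 20, below which no level was recorded, and median intensities ran between 40.5 and 45.6 over the 4 arrays. Across the 11320 genes that passed a filter on low values, replicate arrays had a Pearson correlation of log2 intensities of 0.983 (pseudopodia) and 0.984 (cell bodies), and pairs that cross compartments had 0.949 to 0.957, each over genes, which are no independent replicates. Of the fibroblast markers, Vim, S100a4, Col1a1, Col1a2 and Fn1 read 3031 or more on every array, while Thy1 and Lum lay at the floor on all 4. Of 8 tested fibroblast markers, limma called 4 lower in pseudopodia (Col1a1, Col1a2, Pdgfra and Pdgfrb) and 0 higher. Over all tested genes it called 8.69% lower and 5.92% higher. At an unadjusted p under 0.05, 5 of the fibroblast markers were lower, with Fn1 added, and 0 higher. The shares of all tested genes at that p were 16.4% lower and 15.0% higher. Of 4 tested epithelial markers, 0 were called by limma, with 2 lower (Epcam and Cldn4) and 0 higher at that unadjusted p. Epcam read 248 and 348 in pseudopodia and 604 and 471 in cell bodies. These values are from the brighter of its 2 probe sets, of a kind that can match several transcripts. The fibroblast marker Pdgfra was dimmer than Epcam on each array, at 131 and 149 in pseudopodia and 390 and 259 in cell bodies. Cdh1 read between 110 and 211 and Krt8 between 96.5 and 165, beside 113 to 124 for the fibroblast marker Dcn. Cldn4 read at most 62.8, Krt19 at most 39.3 and Krt18 20 throughout. The levels of the fibroblast and epithelial lists thus overlapped, and the part of either list in the differences below was not tested. None of the 4 haematopoietic or 4 endothelial markers with a probe set passed the filter. Ptprc, Cd3e, Itgam and Pecam1 read at most 22.8, while Cd68 read 32.3 and 27.2 in pseudopodia and 48.7 and 59.1 in cell bodies, and Cdh5, Kdr and Tek read between 20 and 79.1 with overlapping arrays. All 4 arrays carry 1 chip lot and 1 scan day in their records. The pseudopodia arrays were scanned before the cell body arrays, so scan order and compartment cannot be told apart. The log2 ratio of the 3' to the 5' control probe set of Actb, a sign of RNA integrity, was 0.56 and 0.65 in pseudopodia and 0.37 and 0.36 in cell bodies. That of Gapdh was -0.075 and -0.066 in pseudopodia and -0.095 and -0.098 in cell bodies, and the part of either in the differences below was not tested.

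On these arrays, DnaJ genes of the reticulum lumen and of the cytosol or nucleus leaned in opposite directions. This is a description that no test over the sets covers. Messages of the cytosol or nucleus leaned toward pseudopodia, those of the reticulum lumen toward cell bodies, and mitochondrial ones lay near 0 apart from Dnajc15. Those of the reticulum membrane were split, with 2 genes above 0 and 3 below it. Of the 42 genes, 34 passed the filter, and limma called 6 of them higher and 4 lower in pseudopodia at an adjusted p under 0.05. Over all tested genes, the same fit called 5.92% higher and 8.69% lower, so the count of lower DnaJ genes as a whole is close to the background. The 6 that rose were 5 cytosolic or nuclear genes, Dnajc2, Dnajc21, Dnajb4, Dnajb6 and Dnaja1, and the mitochondrial Dnajc15. The 4 that fell were Dnajc16, Dnajc1 and Dnajb11 of the reticulum and Dnajc22, a membrane protein left unassigned. The median log2 difference, pseudopodia minus cell bodies, was -0.47 over the 5 genes of the reticulum lumen, -0.22 over the 5 of the reticulum membrane, 0.026 over 4 mitochondrial genes and 0.38 over 14 cytosolic or nuclear genes, beside -0.0020 over all tested genes. The calls rest on all 4 arrays together: with pseudopodia replicate 1 or 2 or cell body replicate 1 or 2 left out, limma called 0 of all genes (2792 to 2883 had an unadjusted p under 0.05), and all 10 DnaJ genes kept their direction and an unadjusted p under 0.05. Without the filter it called 0 DnaJ genes and 2 genes in all, with 3844 at an unadjusted p under 0.05.

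**Figure D1:**
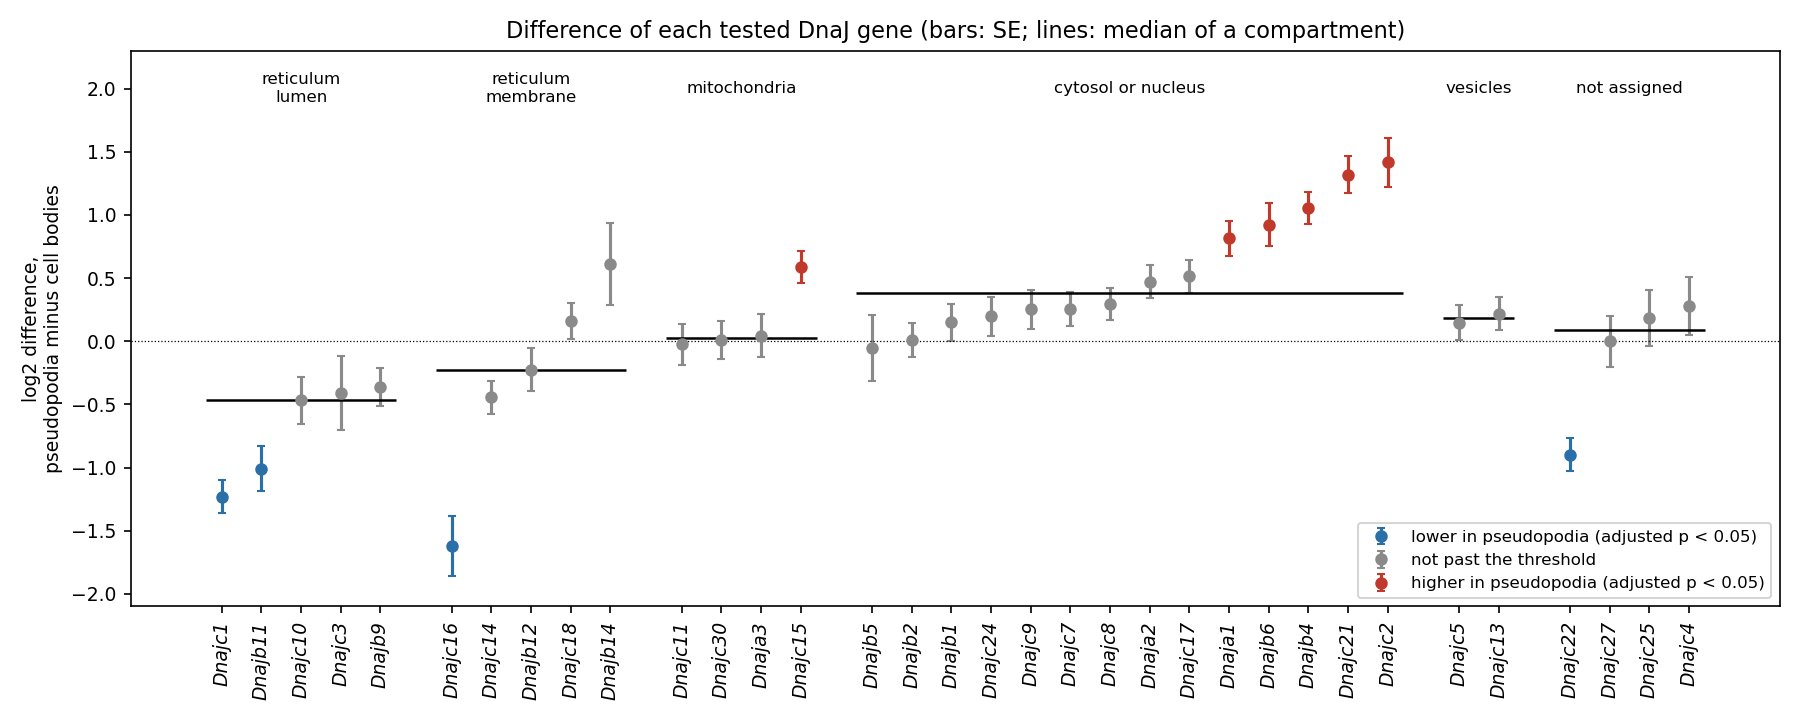
Log2 difference (pseudopodia minus cell bodies, vertical axis) of each of the 34 tested DnaJ genes, grouped by compartment, with bars for the SE of the limma fit, horizontal lines for the median of a group and colour for the call. The 5 genes of the reticulum lumen lie below 0, and 13 of 14 cytosolic or nuclear genes lie above it. Of all 11320 tested genes, 5692 had differences below 0 and 5628 above it.

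The cochaperones of the reticulum lumen serve BiP, and all 5 had lower mean levels in pseudopodia, with log2 differences below 0. Of all 11320 tested genes, 5692 had differences below 0. Limma called 2 of the 5 lower, beside 8.69% of all tested genes. Dnajc1 spans the reticulum membrane with its J domain in the lumen and its other face toward the ribosome. It read 175 and 182 in pseudopodia and 433 and 407 in cell bodies. The compartments lay far apart, and Dnajc1 fell by 1.23 on the log2 scale (SE 0.13, adjusted p = 0.0166), which is 2.35-fold higher in cell bodies. Dnajb11, a soluble lumenal protein that binds unfolded chains and hands them to BiP, read 753 and 983 in pseudopodia and 1709 and 1753 in cell bodies. It fell by 1.01 (SE 0.18, adjusted p = 0.0279), with a wider spread between the pseudopodia arrays than between the cell body arrays.

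The other 3 lumenal members differed by less and did not pass. Dnajc10, a reductase that opens disulfide bonds of proteins bound for degradation, read 732 and 979 in pseudopodia and 1153 and 1191 in cell bodies, a log2 difference of -0.47 (SE 0.18, adjusted p = 0.164). Dnajb9, which takes part in the disposal of misfolded lumenal proteins, read 155 and 152 in pseudopodia and 218 and 179.6 in cell bodies, a difference of -0.36 (SE 0.15, adjusted p = 0.188). Dnajc3, a lumenal cochaperone of BiP with tetratricopeptide repeats, read 443 and 703 in pseudopodia and 623 and 885 in cell bodies, a difference of -0.41 (SE 0.29, adjusted p = 0.412). The size for Dnajc3 rests on single arrays, at -0.079 without pseudopodia replicate 1, -0.74 without pseudopodia replicate 2, -0.66 without cell body replicate 1 and -0.16 without cell body replicate 2. Dnajc10 and Dnajb9 had arrays that did not overlap, whereas those of Dnajc3 did. In all, 4 of the 5 lumenal genes were lower in pseudopodia with no overlap of arrays, beside 31.4% of all tested genes.

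**Figure D2:**
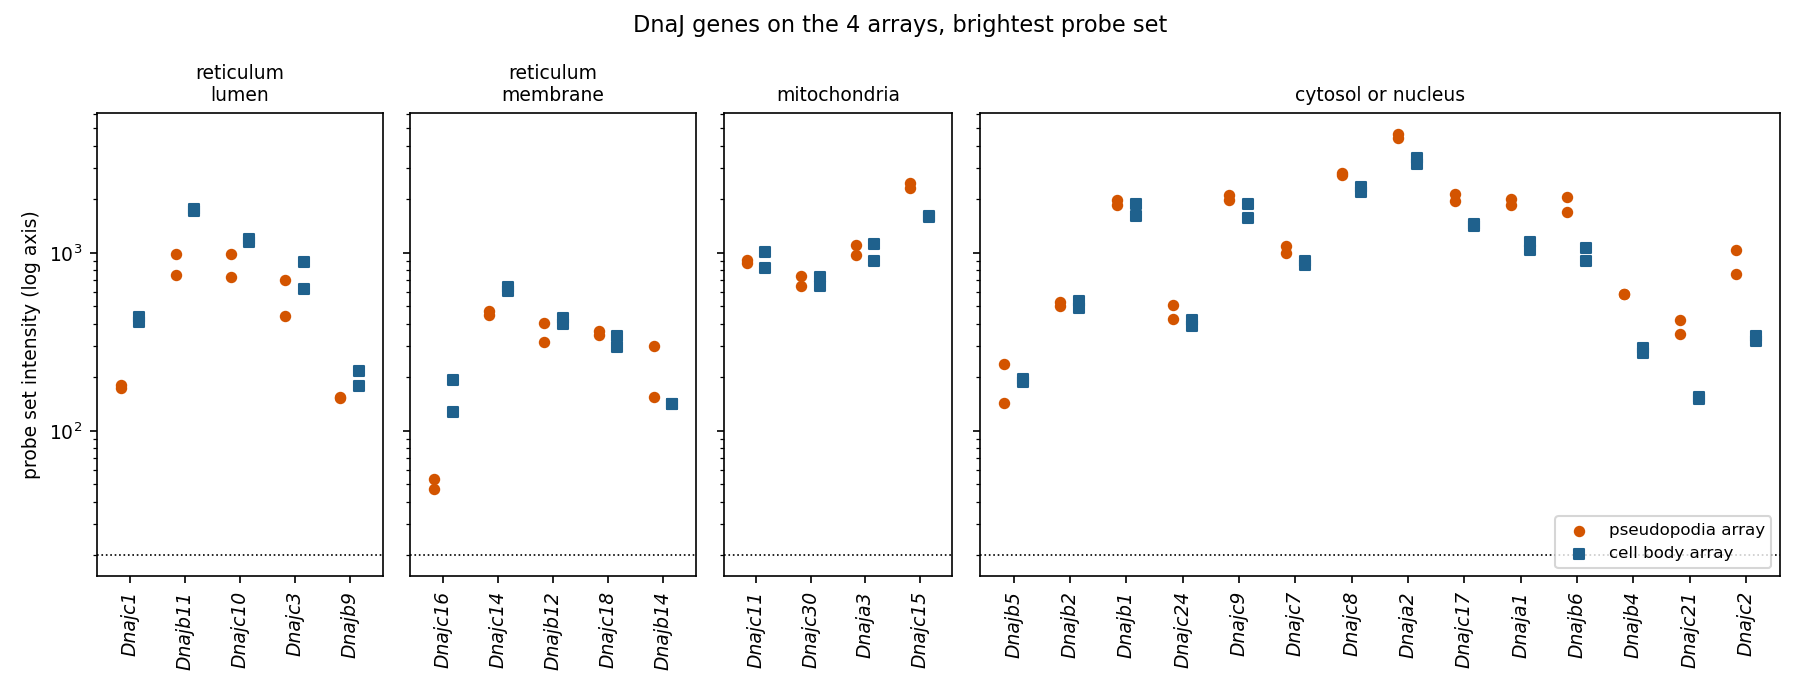
Probe set intensity (vertical log axis) of the tested DnaJ genes of 4 compartments on each array, with pseudopodia arrays as circles, cell body arrays as squares and the floor of 20 as a dotted line. Circles lie below squares for Dnajc1 and Dnajb11 and above them for Dnajb4, Dnajc21 and Dnajc2.

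Several lumenal J proteins are classical targets of the unfolded protein response, which acts through endoplasmic reticulum stress elements in their promoters. The RefSeq promoter windows (250 bases before to 50 after the start, build GRCm38.p6) were searched on both strands for the element made of CCAAT and CCACG with 9 free bases between them, and for its second form, ATTGG and CCACG with 1 free base between them, and 35 of the 42 DnaJ genes had a window. The first form occurred in 0.119% of 32851 windows and, among DnaJ genes, in that of Dnajc3; the second form occurred in 0.0365% of windows and, among DnaJ genes, in that of Dnajb11. Both windows are shown because their genes belong to the group that was lower in protrusions, Dnajb11 past the test and Dnajc3 not, with the matched element in capitals. The BiP gene Hspa5 also held the first form. A match is a description of these letters and was not tested for a link with the distribution of the RNA.
Dnajb11, chr16:22857595-22857894, plus strand: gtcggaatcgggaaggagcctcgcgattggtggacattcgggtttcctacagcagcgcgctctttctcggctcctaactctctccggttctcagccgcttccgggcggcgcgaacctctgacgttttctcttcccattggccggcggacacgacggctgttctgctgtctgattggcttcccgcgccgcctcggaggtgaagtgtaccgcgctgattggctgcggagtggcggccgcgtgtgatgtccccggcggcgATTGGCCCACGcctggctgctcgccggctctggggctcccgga
Dnajc3, chr14:118937682-118937981, plus strand: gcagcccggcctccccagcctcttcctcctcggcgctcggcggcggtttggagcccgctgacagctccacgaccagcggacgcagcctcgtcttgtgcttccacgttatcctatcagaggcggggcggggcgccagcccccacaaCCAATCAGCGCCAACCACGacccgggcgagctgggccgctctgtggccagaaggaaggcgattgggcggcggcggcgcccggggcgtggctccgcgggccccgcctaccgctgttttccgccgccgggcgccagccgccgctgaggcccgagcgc

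The J proteins of the reticulum membrane did not move as one. Dnajc16, a membrane protein with a thioredoxin-like domain, was dim in protrusions, at 47.2 and 53.9 in pseudopodia and 194 and 127 in cell bodies. It had the lowest difference among tested DnaJ genes, and it fell by 1.62 (SE 0.24, adjusted p = 0.0206) and ranked 121 from the bottom of the 11320 tested genes. Its pseudopodia level is close to the floor of 20, so the size is uncertain. Dnajc14, known for its part in the export of a dopamine receptor, was lower with no overlap of arrays, at 445 and 474 in pseudopodia and 645 and 606 in cell bodies, but had an adjusted p of 0.0896 at a log2 difference of -0.44 (SE 0.13). Dnajb12 and Dnajb14 hold their J domains toward the cytosol and recruit Hsc70 to the reticulum surface. Their log2 differences were -0.22 (SE 0.17, adjusted p = 0.446) and 0.61 (SE 0.33, adjusted p = 0.280), and the pseudopodia arrays of Dnajb14 disagreed, at 156 and 299. Dnajc18 had a difference of 0.16 (SE 0.14, adjusted p = 0.514).

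Dnajc22, whose compartment was left unassigned, was also lower in protrusions. It encodes a protein with several membrane spans whose fly relative takes part in clathrin-mediated endocytosis, and it read 432 and 462 in pseudopodia and 852 and 818 in cell bodies. The arrays of each compartment lay close together, and it fell by 0.90 (SE 0.13, adjusted p = 0.0202). Its brightest probe set is of a kind that can match several transcripts, and the other one differed by -0.53 (adjusted p = 0.128 in the fit over probe sets).

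Mitochondrial J proteins gave mixed results, with 1 of 4 tested genes called higher in pseudopodia, beside 5.92% of all tested genes. Dnajc15, an inner membrane protein tied to the import motor and to restraint of respiration, read 2321 and 2471 in pseudopodia and 1583 and 1607 in cell bodies. It rose by 0.59 (SE 0.13, adjusted p = 0.0467), or 1.5-fold, and was not called with median centring (adjusted p = 0.0794) or in the fit over probe sets (adjusted p = 0.0661). Dnaja3, the main J protein partner of mortalin, read 1101 and 975 in pseudopodia and 1122 and 903 in cell bodies, and its log2 difference was 0.042 (SE 0.17, adjusted p = 0.898). Dnajc11, which is tied to the contact sites of the inner and outer membranes, read 880.4 and 907 in pseudopodia and 817 and 1011 in cell bodies, with a difference of -0.025 (SE 0.16, adjusted p = 0.939). Dnajc30, a protein of the inner membrane, read 738 and 648 in pseudopodia and 728 and 647 in cell bodies, with a difference of 0.0098 (SE 0.15, adjusted p = 0.974). For Dnaja3, Dnajc11 and Dnajc30 the arrays of the compartments overlapped, and the sign changed with scaling or with 1 array left out, so they had no settled direction.

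Most cytosolic and nuclear J proteins had higher levels in pseudopodia. Of 14 tested genes, 13 had differences above 0, beside 5628 of 11320 tested genes in all. By limma, 5 of the 14 were called higher and 0 lower, beside 5.92% and 8.69% of all tested genes. At an unadjusted p under 0.05 these counts were 7 and 0, beside 15.0% and 16.4% of all tested genes. Without overlap of arrays, 11 of the 14 were higher in pseudopodia, beside 29.5% of all tested genes, and 0 were lower, beside 31.4%. The largest rises among DnaJ genes were those of Dnajc2 and Dnajc21, which work at ribosomes or in making them. Dnajc2, the relative of yeast zuotin, which sits at the exit of the ribosome and receives new chains, read 755 and 1032 in pseudopodia and 339.5 and 321 in cell bodies. It rose by 1.42 (SE 0.19, adjusted p = 0.0189), or 2.67-fold, which ranked it 84 from the top of the tested genes. Dnajc21, whose yeast relative works in the maturation of the large ribosomal subunit, read 351 and 418 in pseudopodia and 151 and 154 in cell bodies. It rose by 1.32 (SE 0.15, adjusted p = 0.0166), or 2.49-fold, and ranked 112 from the top.

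The general folding cochaperones of Hsc70 followed. Dnajb4, a close relative of Dnajb1, read 589.7 and 586 in pseudopodia and 291 and 275 in cell bodies, and rose by 1.05 (SE 0.13, adjusted p = 0.0176). Dnajb6, which holds back the aggregation of polyglutamine proteins, read 2045 and 1691 in pseudopodia and 904 and 1066 in cell bodies, and rose by 0.92 (SE 0.17, adjusted p = 0.0322). Dnaja1, a farnesylated J protein of the class closest to bacterial DnaJ, read 1845 and 1998 in pseudopodia and 1037 and 1149.8 in cell bodies, and rose by 0.81 (SE 0.14, adjusted p = 0.0270). In each of these genes the lower pseudopodia array was well above the higher cell body array. Dnaja1 has a farnesylated relative in Dnaja2, the brightest cytosolic member, which read 4639 and 4433 in pseudopodia and 3144 and 3403 in cell bodies. The difference of Dnaja2 was 0.47 (SE 0.13, adjusted p = 0.0799), and it was called with quantile normalization (adjusted p = 0.0447), a stricter filter (0.0452) and an intensity trend in the prior variance (0.00410). Median centring gave 0.44 (adjusted p = 0.183) and no call. Its brightest probe set is of a kind that can match several transcripts, and without that kind the difference was 0.38 (adjusted p = 0.300). With the mean of all its probe sets it was 0.053 (adjusted p = 0.808).

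Dnajb6 was the DnaJ gene whose promoter window held a heat shock element of 3 units, GAA, TTC and GAA with 2 free bases between neighbours, the binding motif of heat shock factors, which occurred in 0.603% of windows on either strand. Among the partners, the windows of Hsph1 held it too. The window of Dnajb6 is shown with the element in capitals, as the cytosolic counterpart of the windows above, and again describes only these letters.
Dnajb6, chr5:29735648-29735947, plus strand: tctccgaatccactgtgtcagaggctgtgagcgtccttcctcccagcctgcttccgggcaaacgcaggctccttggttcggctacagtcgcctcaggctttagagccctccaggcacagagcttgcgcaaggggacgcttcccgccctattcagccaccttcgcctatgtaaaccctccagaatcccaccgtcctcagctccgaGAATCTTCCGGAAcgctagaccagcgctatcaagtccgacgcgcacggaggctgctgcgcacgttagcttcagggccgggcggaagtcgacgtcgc

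The other cytosolic and nuclear members did not pass. Dnajc8 of the spliceosome, at 2789 and 2749 in pseudopodia and 2181 and 2337 in cell bodies, had a difference of 0.29 (SE 0.13, adjusted p = 0.201). Dnajc9, a nuclear chaperone of histones H3 and H4, read 2121 and 1972 in pseudopodia and 1569 and 1875 in cell bodies, with a difference of 0.25 (SE 0.15, adjusted p = 0.334). Dnajb1, the main stress-inducible HSP40, had 1860.1 and 1978 in pseudopodia and 1600.5 and 1869 in cell bodies, and its arrays overlapped (log2 difference 0.15, adjusted p = 0.556). Dnajc17, a splicing factor, read 1961 and 2137 in pseudopodia and 1455 and 1411 in cell bodies, with no overlap and a difference of 0.51 (SE 0.13, adjusted p = 0.0661). In the fit over probe sets, a dimmer one of Dnajc17 differed by 0.22 with overlapping arrays (adjusted p = 0.520). A second bright one of Dnajb1 differed by -0.051 (adjusted p = 0.860). Dnajc7, Dnajc24, Dnajb2 and Dnajb5 lay between -0.053 and 0.26. On vesicles, the exocytosis chaperone Dnajc5 and the endosomal Dnajc13 had differences of 0.15 and 0.22 (adjusted p = 0.534 and 0.331). The unassigned Dnajc4, Dnajc25 and Dnajc27 had differences of 0.28, 0.18 and -0.0012 and did not pass.

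A comparison made within each array is not moved by a shift common to all log2 values of that array. A scaling that varies with intensity could still move it. The mean log2 intensity of the 5 lumenal genes minus that of the 14 cytosolic or nuclear genes was -1.53 and -1.30 in pseudopodia and -0.17 and -0.18 in cell bodies. The balance between these sets thus differed by -1.24 between the compartments, more than the gap between replicate arrays in either of them. This balance restates the gene differences given above, for lists chosen with earlier results known, and is no separate evidence. For the reticulum membrane against the cytosol it was -2.36 and -2.13 in pseudopodia and -1.27 and -1.52 in cell bodies, and for mitochondria 0.094 and -0.033 in pseudopodia and 0.47 and 0.37 in cell bodies. The absolute level of such a balance depends on the probes, and an exact permutation test of 4 arrays cannot give a two-sided p under 0.333, so none was run.

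The probe sets of a gene did not always move together. Of 102 DnaJ probe sets, 75 passed the filter, and limma fitted over all probe sets called 8 higher and 6 lower, against 4.30% and 7.44% of all tested probe sets. Among 23 DnaJ genes with several tested probe sets, 14 had differences of 1 sign (60.9%), beside 61.8% of 4916 genes in all. All 3 probe sets of Dnaja1 rose, by 0.81, 1.17 and 1.01. Those of Dnajc2 and Dnajc21 shared their sign in every tested case, with differences of 1.42, 1.00 and 1.37 for Dnajc2 and of 1.32, 1.25 and 0.99 for Dnajc21, of which the brightest passed.

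Other genes were split. The rise of Dnajb6 came from its brightest probe set, while a second bright one read 693 and 592 in pseudopodia and 655 and 653 in cell bodies (difference -0.031, adjusted p = 0.922). Dnajc1 fell at a second probe set, by 1.01 (adjusted p = 0.0390), but had differences of 0.58 and -0.034 at dimmer ones. Dnajc3, not called at its brightest probe set, fell by 1.49 (SE 0.14, adjusted p = 0.0241) at another, which read 53.0 and 51.1 in pseudopodia and 143 and 154 in cell bodies. Dnajc5 rose by 1.12 (adjusted p = 0.0437) at 1 of 5 probe sets, at 698 and 979 in pseudopodia and 355 and 405 in cell bodies, with differences of -0.053 to 0.15 at the other ones. A probe set of Dnaja2 went against the rest of that gene, with a difference of -1.27 (adjusted p = 0.0536). Which transcript forms these probe sets read was not analysed here. With the mean of all its probe sets, Dnajc1 (-0.30, adjusted p = 0.250), Dnajb4 (0.69, 0.0791), Dnajb6 (0.25, 0.368) and Dnajc21 (0.73, 0.0733) were no longer called, and Dnajc3 was (-0.62, 0.0413).

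**Figure D3:**
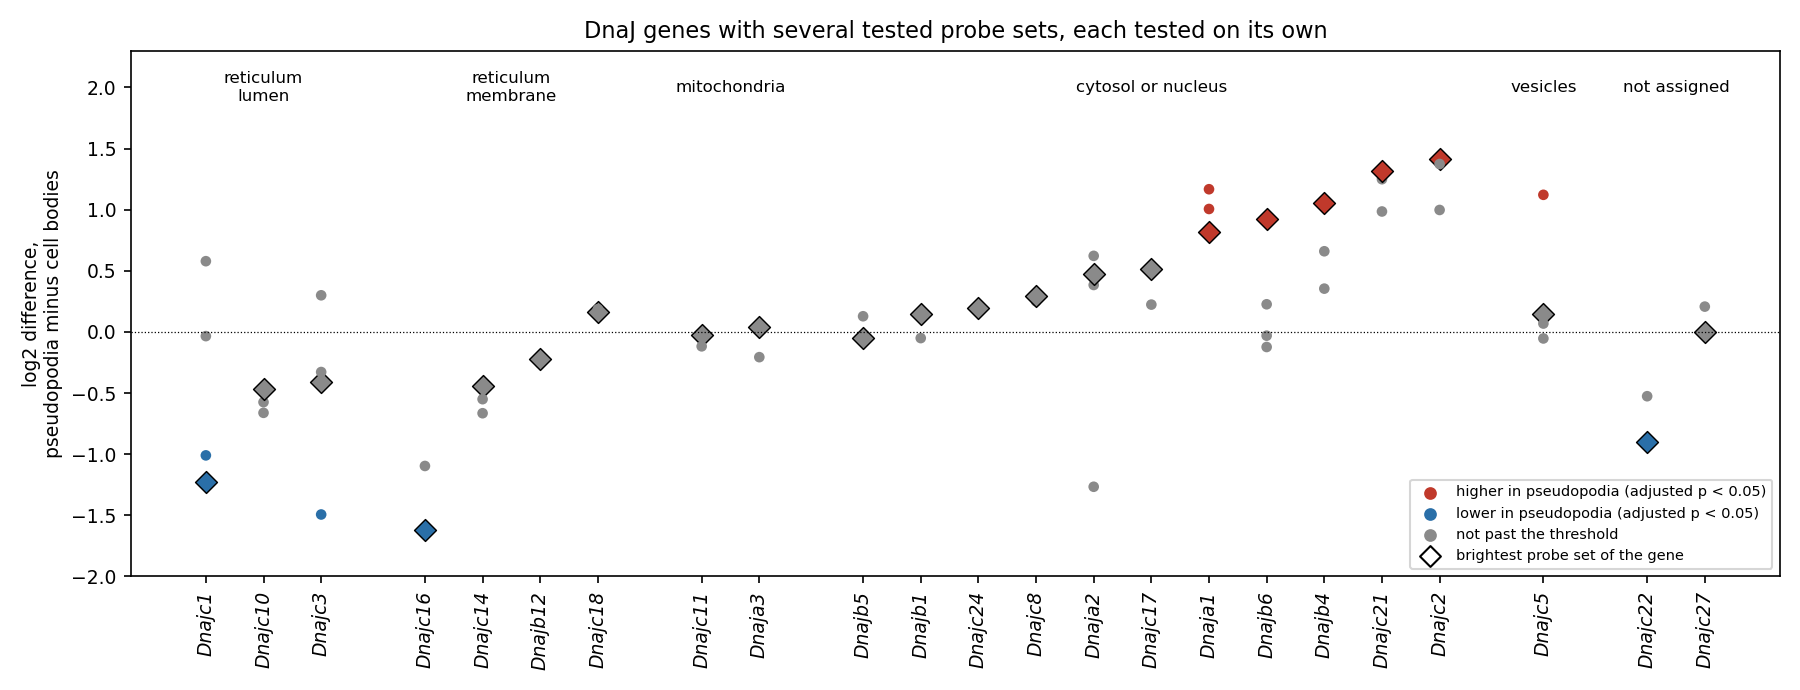
Log2 difference (pseudopodia minus cell bodies, vertical axis) of every tested probe set of the 23 DnaJ genes that have several, with the brightest of a gene as a diamond and colour for the call in the fit over probe sets. The 3 probe sets of Dnaja1 lie together near 1, while those of Dnajb6, Dnajc1, Dnajc3 and Dnaja2 spread over both sides of 0.

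Among the HSP70s that J proteins serve and the factors that reset or join them, 2 exchange factors of the reticulum were called lower in pseudopodia. BiP (Hspa5) and Hspa13 of the reticulum were not called, and the cytosol gave no call. Of 6 partners in the reticulum, 2 fell, beside 8.69% of all tested genes, and all 6 were lower with no overlap of arrays, beside 31.4%. Hyou1, which exchanges the nucleotide of BiP, read 564 and 712 in pseudopodia and 1277 and 1606 in cell bodies, and fell by 1.17 (SE 0.20, adjusted p = 0.0257). Sil1, the other exchange factor of BiP, read 145 and 186 in pseudopodia and 558 and 369.5 in cell bodies, and fell by 1.46 (SE 0.25, adjusted p = 0.0277). BiP itself (Hspa5) read 1276 and 1876 in pseudopodia and 2594 and 2675 in cell bodies, a difference of -0.77 (SE 0.22, adjusted p = 0.0817). Hspa13, also an HSP70 of the reticulum, had a difference of -0.40 (SE 0.21, adjusted p = 0.281). Sdf2l1 and Sdf2, which form complexes with Dnajb11, had differences of -0.70 and -0.27 (adjusted p = 0.0664 and 0.292).

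In the cytosol, limma called 0 of 16 tested partners in either direction, with 3 higher and 2 lower in pseudopodia at an unadjusted p under 0.05, and 0 of 3 mitochondrial ones, with 1 higher at that p. Against 15.0% higher and 16.4% lower over all tested genes at that p, the cytosolic counts are close to the background. Whether partners and J proteins of the cytosol differ from each other was not tested. Hsc70 (Hspa8) read 9799 and 9145 in pseudopodia and 9398 and 9137 in cell bodies, among the brightest values of these arrays, where a difference can be compressed (0.031, SE 0.13, adjusted p = 0.902). Mortalin (Hspa9) read 3220.4 and 2960.1 in pseudopodia and 2360.1 and 1986 in cell bodies, with a difference of 0.51 (SE 0.15, adjusted p = 0.0919). The inducible Hspa1b, whose probe sets can share sequence with its near-identical copy Hspa1a, had a difference of -0.51 (adjusted p = 0.136). Exchange factors went both ways. Hspa4l, Hspa4 and Bag1 had differences of 0.77, 0.52 and 0.51 (adjusted p = 0.0617, 0.0769 and 0.0621), and Bag3 had -0.49 (adjusted p = 0.0954). Hsph1, Bag2, Bag4, Bag5 and Hspbp1 lay between -0.13 and 0.14 and did not pass. J proteins that carry other names did not pass: Sec63 of the translocon, which brings BiP to the import channel, had a difference of 0.19, the auxilin-like Gak -0.19 and the iron-sulfur cochaperone Hscb 0.28 (adjusted p = 0.561, 0.547 and 0.419).

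**Figure D4:**
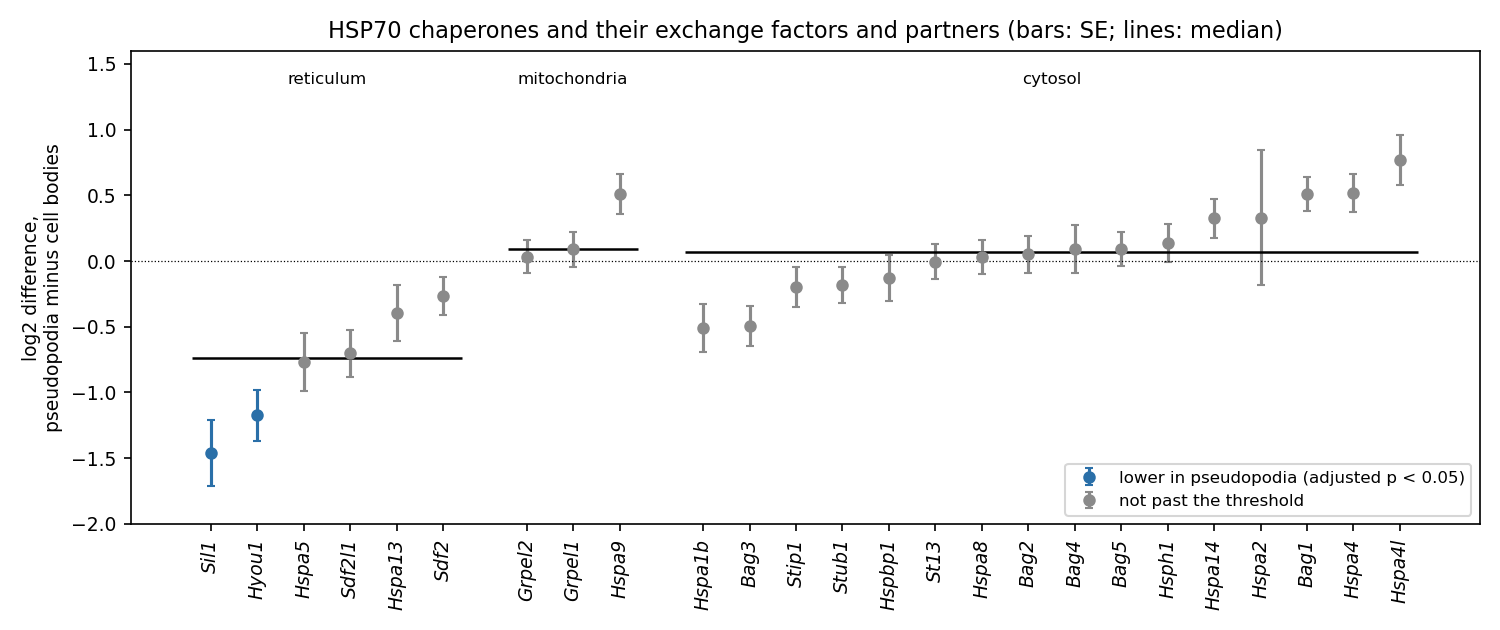
Log2 difference (pseudopodia minus cell bodies, vertical axis) of HSP70s and their partners by compartment, with bars for the SE of the limma fit and horizontal lines for the median of a group. The 6 reticulum genes lie below 0, with Sil1 and Hyou1 past the threshold, and the 16 cytosolic genes spread on both sides of 0.

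The remaining 8 DnaJ genes did not pass the filter and were not tested. Dnajc12, a cochaperone of aromatic amino acid hydroxylases, and Dnajb3, Dnajb7 and Dnajb13 lay at the floor of 20 on all 4 arrays at their brightest probe set. Dnaja4, Dnajb8, Dnajc28 and the neuronal clathrin uncoating factor Dnajc6 read between 20 and 54.3, with overlapping arrays.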

How the data were processed

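The authors deposited probe set intensity values on a linear scale, 1 column per array; how probes were summarised and scaled, and the software: not given in the sources used here. A floor of exactly 20 holds on all arrays. The array records, per the file headers, were used to count chip lots and order scans, a measure of other kind than intensity. Per the labels' protocols, cells were fixed in 0.3% formaldehyde for 10 min, crosslinks were reversed at 70 °C for 45 min, and Trizol LS was used to extract the RNA.

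Values were taken as log2(intensity + 1), so folds of dim genes are understated. Control probe sets (64) entered no test. Of the others, 34945 had 1 gene symbol, 932 several and 9160 none. For each gene the brightest of its 1-symbol probe sets was taken, and genes under the median of all probe sets (an intensity of 42.0) were left out. Pseudopodia and cell bodies (2 arrays each, which limits precision) were compared with limma 3.58.1 in R 4.3.3 (lmFit, eBayes, two-sided, no covariate, 2 residual and 2.90 prior degrees of freedom), with Benjamini-Hochberg adjustment over all 11320 genes, and again over all 22519 tested probe sets. The fit was tested on simulated data. Gene IDs of all 42 DnaJ genes matched the RefSeq table. Promoter windows are RefSeq's (GRCm38.p6).

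The genes, compartments and partner lists were chosen with earlier results of these data known. Values on each array are given for every tested member of the reticulum lumen and mitochondria, every called member and the 3 brightest cytosolic or nuclear members (Dnaja2, Dnajc8 and Dnajc9), and of the partners for called genes, Hspa5, Hspa8 and Hspa9; other values were chosen after they were seen. Alternatives covered the pseudocount, scaling, filter, variance prior, choice of probe set, the replicate number as a block and each array left out.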

Additional observations from a re-analysis of the deposited data

How the results depend on the processing

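Of the 10 DnaJ calls, all 10 remained with a pseudocount of 16, no pseudocount, quantile normalization, an intensity trend in the prior variance and the replicate number as a block. Counts of all genes called were 1654 in the main setting, 2564 with the trend, 2 without a filter and 0 with any 1 array left out, and those of probe sets were 2645, 4440, 73 and 0. DnaJ genes called were 0 without a filter and 0 with any 1 array left out, as were DnaJ probe sets. Without probe sets that can match several transcripts, Dnajc2 (difference 1.37, adjusted p = 0.184) and Dnajc22 (-0.53, adjusted p = 0.104) were not called.

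The median of the lumenal genes was -0.38 with quantile normalization and -0.37 to -0.74 with 1 array left out. The median of cytosolic or nuclear genes was 0.51 with quantile normalization, 0.26 without a filter and 0.26 with the mean of all probe sets. The mitochondrial median was 0.10 with quantile normalization, -0.0079 with median centring and -0.024 to 0.15 with 1 array left out; the cause was not tested. Signs turned for Dnaja3 (-0.11 to 0.20 with 1 array left out), Dnajc11 (0.053 with quantile normalization, 0.0075 with the mean of all probe sets, -0.18 to 0.13 with 1 array left out), Dnajc30 (-0.024 with median centring, -0.084 to 0.10 with 1 array left out) and Hspa8 (-0.0030 with median centring, -0.18 with the mean of all probe sets, -0.076 without shared probe sets, -0.019 to 0.081 with 1 array left out).

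The labels number the samples of each compartment but do not say that a number marks a shared culture. Deviations of same-numbered samples correlated at 0.342 across genes. With the replicate number as a block, 2202 genes, 10 DnaJ genes, 3350 probe sets and 16 DnaJ probe sets were called. Levels near the floor of 20 (Dnajc16 in pseudopodia) or near the top of the scale (Hspa8) limit the size of a difference.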
